A study of Homo sapiens with 3 samples.

Results

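Carbon black was compared with no treatment in HaCaT cells, an immortalised human keratinocyte line, by RNA sequencing of 1 library a side. The culture called CB received carbon black, a powder of nearly pure carbon, at 25 µg/mL, and the control culture received no particles. A further culture received S1650b, another particle sample, at 50 µg/mL. All were wild-type HaCaT cells, maintained in DMEM with serum and cultured overnight before treatment. The protocol, given alike for all 3 samples, has the particles in DMEM without serum for 24 h, and does not describe the control medium separately. The series has 3 libraries, and the S1650b values stand here only beside those of the other 2, since its dose differs and its library was set against the same control.

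The genes described are those with a level of at least 1 CPM, counts scaled to a common library total, in the CB library or in the control, which left 13963 of the 58735 genes in the count table. Levels are given as CPM scaled by the TMM method, which corrects for a few strong genes taking up reads. Each fold is the ratio of the scaled CPM of CB to that of the control, with an exact 95% Clopper-Pearson interval in brackets. The interval covers counting error only, and no difference has a replicate check or a p-value because each group holds 1 library. A gene was called higher or lower when its fold was at least 2 and its interval lay on that side of 1. By this rule 232 genes (1.66% of those tested) were higher with carbon black and 748 (5.36%) were lower. For members of gene lists the rule was a fold of at least 1.5, which 675 genes (4.83%) passed as higher and 1493 (10.7%) as lower among all genes tested.

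Keratinocytes of the basal layer divide, and as they leave it they stop dividing, change their keratins and build a crosslinked protein envelope. Signals from the epidermal growth factor (EGF) receptor and from integrins favour growth and wound repair, while Notch and the vitamin A pathway help to set the differentiated state. Cells short of amino acids or burdened with unfolded protein raise the factor ATF4 or the heat shock factors, and the aryl hydrocarbon receptor (AHR) switches on P450 enzymes that oxidise aromatic compounds.

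The 3 libraries hold between 20417744 and 20946139 counts, and mitochondrially encoded RNA made up 4.92% of counts in the control, 4.11% with CB and 6.0% with S1650b. The keratinocyte label was checked with 16 markers, all of which reached the filter, and 0 of them passed 1.5-fold in either direction. KRT5, a basal keratin, stood at 7008 CPM in the control, 5914 with CB and 2222 with S1650b. TP63, the master regulator of stratified epithelia, stood at 144 CPM in the control, 162 with CB and 178 with S1650b. Markers of other cell types were sparse. Among 12 fibroblast markers 4 were tested, with COL6A3, FAP and POSTN at 0 in CB and control, and the summed level of the 12 was 105 CPM in the control, 45.2 with CB and 20.5 with S1650b. DCN and COL3A1 made up most of that sum. Of 9 endothelial markers 3 were tested, with KDR and TEK at 0 and a sum of 58.4 CPM in the control, 32.6 with CB and 48.1 with S1650b. Of 12 immune markers 2 were tested, with PTPRC and CD68 at 0 in both and a sum of 6.4 CPM in the control, 2.93 with CB and 3.31 with S1650b, and of 8 melanocyte markers 2, with TYR, TYRP1 and DCT at 0 and a sum of 10.2 CPM in the control, 8.36 with CB and 9.58 with S1650b. Fibroblast markers with 0 counts numbered 7 in the control and 3 with CB, and endothelial ones 5 and 2. Immune markers with 0 counts numbered 6 in the control and 8 with CB, and melanocyte ones 3 and 4. The summed levels were lower in CB than in the control for all 4 types. Their part in the results was not tested. In bulk RNA, fewer cells of a kind and less RNA per cell cannot be told apart.

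Most transcripts stood close to the control: 82.0% of the 13963 genes had a fold within 1.5 in either direction, the median log2 fold was 0.00, and the middle 90% of genes lay between −1.04 and 0.62. The lower tail was longer than the upper one, with 124 genes at least 4-fold lower and 32 at least 4-fold higher among those called. In the CB library transcripts of AP-1 factors, ligands of the EGF receptor family, the ATF4 amino acid response, tRNA synthetases and heat shock chaperones were among those higher. Brakes on PI3 kinase signalling and genes linked to FOXO factors, retinoid genes, histones, interferon-stimulated genes and envelope proteins were among those lower. Many called genes were near the filter: 127 of the 232 higher genes had under 1 CPM in the control, and 361 of the 748 lower genes had under 1 CPM in CB, so these passed the filter through the library in which they were high. Just inside the filter, 283 genes had a higher CPM of 1 to 1.1 with median counts of 21 in both libraries. Just outside it, at 0.9 to 1 CPM, 263 genes had median counts of 19 in the control and 16 in CB.

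**Figure D1:**
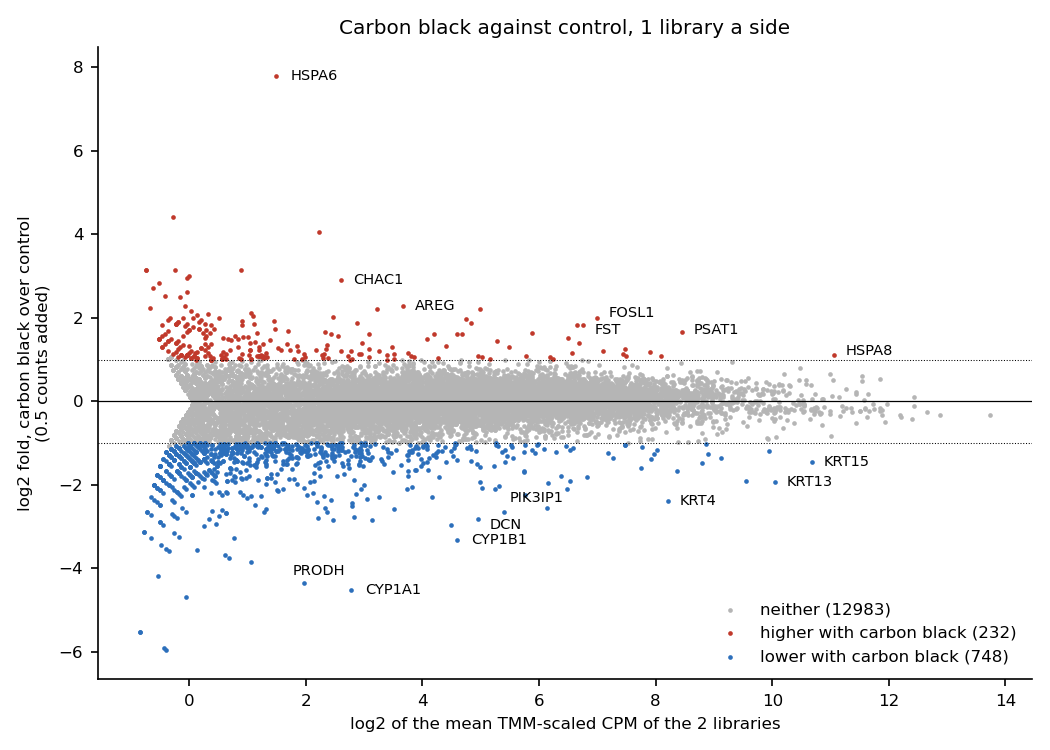
Each point is 1 of the 13963 genes, with the log2 of its mean TMM-scaled CPM on the x axis and its log2 fold of carbon black over control, with 0.5 counts added to each library, on the y axis. The 232 genes called higher are red and the 748 called lower are blue, the dotted lines mark 2-fold, and most called genes lie at the left where counts are low.

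A total of 1265 genes on 55 lists was examined, of which 1123 passed the filter. Of these 126 were higher and 148 lower past 1.5-fold, and their median log2 fold was 0.05. The plot of the lists sets their shares beside the 4.83% higher and 10.7% lower of all genes, against which each list below is to be read. The lists were chosen with earlier results of these data known, so the rank of a list is no independent support for its theme.

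**Figure D2:**
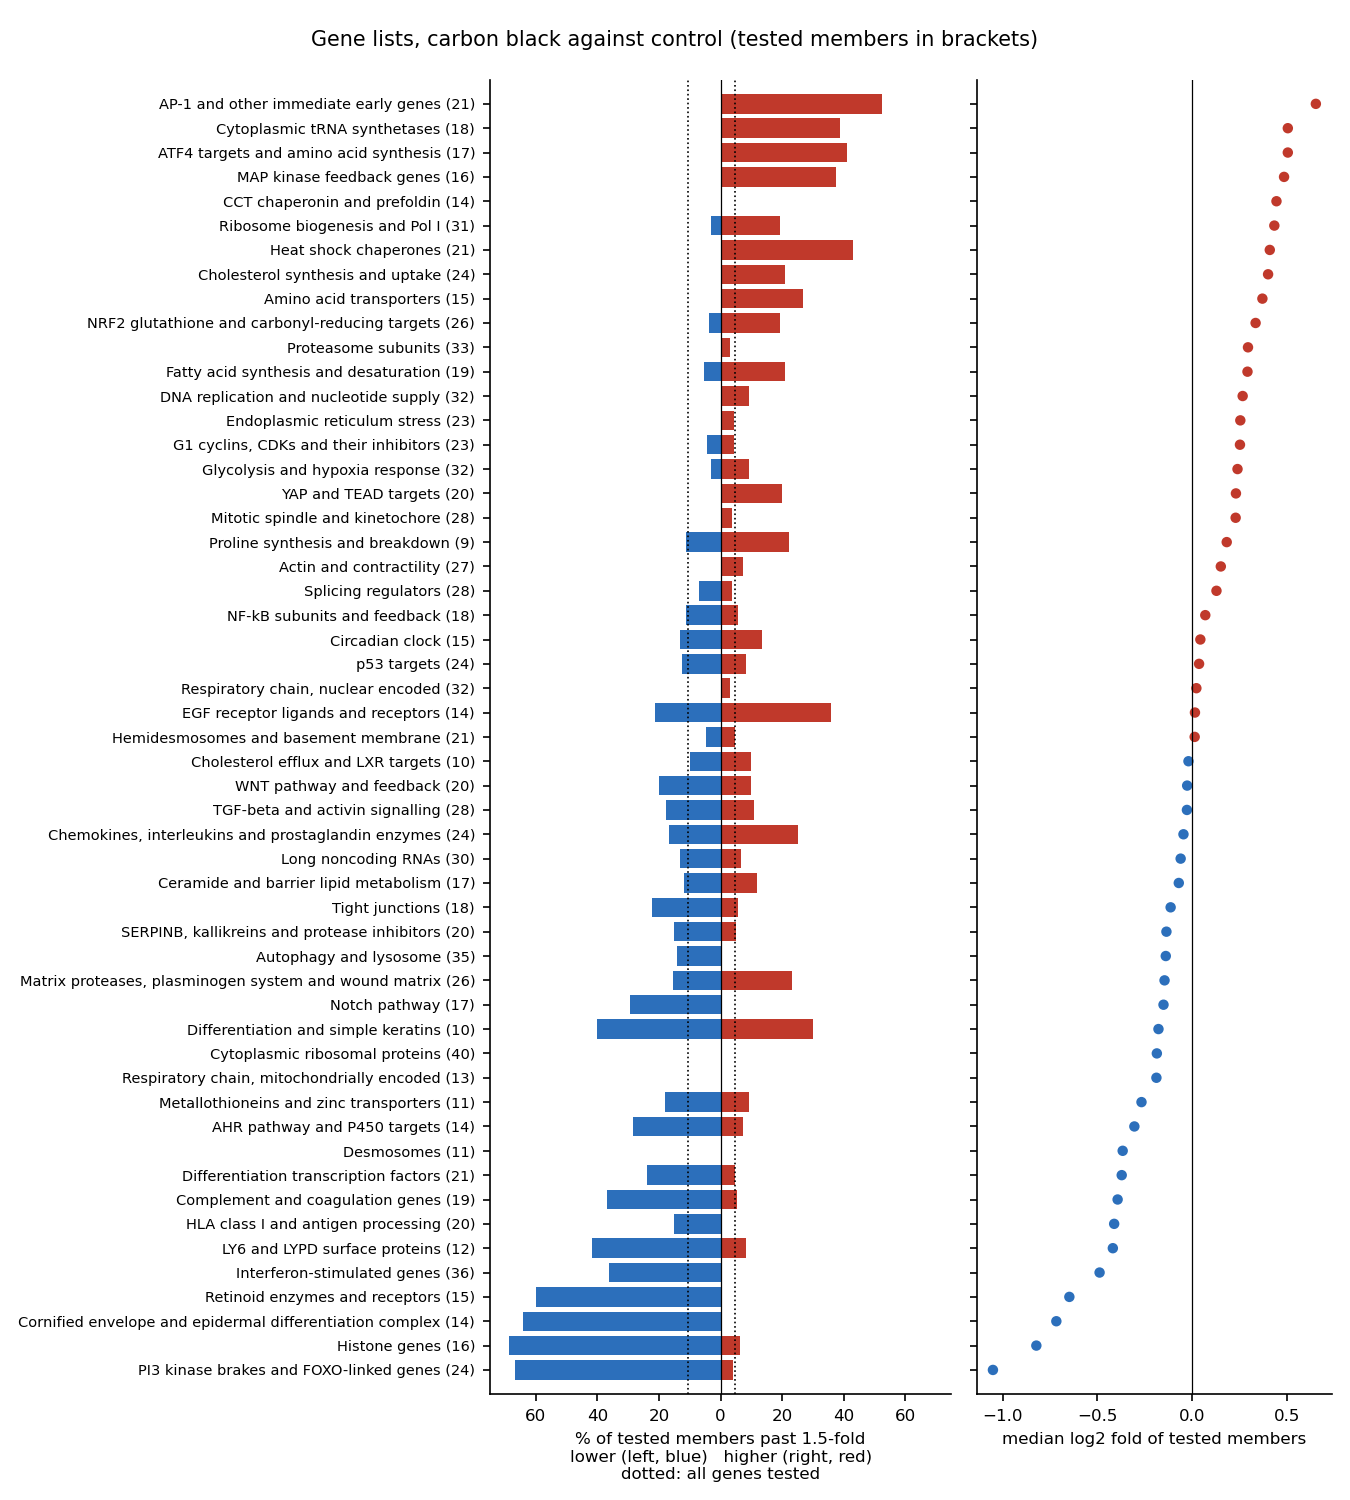
Bars give the share of tested list members past 1.5-fold, lower to the left and higher to the right, with dotted lines at the 10.7% lower and 4.83% higher of all genes tested. Points give the median log2 fold of each list, from −1.05 for the PI3 kinase brakes and FOXO-linked genes to 0.65 for the AP-1 and immediate early genes. Lists with fewer than 9 tested members are left out.

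Several ligands of the EGF receptor family were higher with carbon black, while the receptors EGFR, ERBB2 and ERBB3 were not. Of 14 tested members of the ligand and receptor list, 5 were higher and 3 lower (1 with the deposited FPKM), with a median log2 fold of 0.01. AREG, amphiregulin (ENSG00000109321, chr4:74445134-74455009), stood at 4.32 CPM in the control, 21.2 with CB and 9.09 with S1650b, and was 4.91-fold higher (3.88 to 6.27) in CB than in the control. NRG1, neuregulin, stood at 56.5 CPM in the control, 148 with CB and 69.7 with S1650b and was 2.62-fold higher. EREG, epiregulin, was 2.21-fold higher on 19 counts in the control, 43 with CB and 16 with S1650b, and HBEGF 1.62-fold higher. The CB library was the highest of the 3 for each of these 4 ligands. Among receptors EGFR stood at 521 CPM in the control, 486 with CB and 549 with S1650b with a fold of 0.932 (0.907 to 0.959), ERBB2 had a fold of 0.695 (0.661 to 0.731), and ERBB3 was 1.59-fold lower. The ligand BTC was 1.67-fold lower, while ERRFI1, an inhibitor that EGF receptor signalling induces, was 1.81-fold higher.

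Feedback inhibitors of the MAP kinases, such as ERK, are often transcribed when these kinases are active and then switch them off. These inhibitors were higher in 6 of 16 tested members and lower in 0, with a median log2 fold of 0.48. Kinase activity was not measured. SPRY4, a Sprouty protein, had 10 counts in the control, 38 with CB and 12 with S1650b and was 3.72-fold higher (1.82 to 8.37). DUSP6, the ERK phosphatase, stood at 47.1 CPM in the control, 98.3 with CB and 39.4 with S1650b and was 2.09-fold higher, although 40.5% of its exon bases overlap another gene. DUSP8, DUSP4, DUSP7 and DUSP2 were 2.43, 1.98, 1.77 and 1.75-fold higher. In contrast SPRY1 had a fold of 0.931 (0.77 to 1.13) and DUSP5 a fold of 1.19 (1.04 to 1.36).

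AP-1, the dimeric factor made from FOS and JUN proteins, is one endpoint of MAP kinase signalling. The list of AP-1 and immediate early genes, chosen with earlier results known, showed the highest median of all 55 lists. Of 21 tested AP-1 and immediate early genes, 11 were higher and 0 lower, with a median log2 fold of 0.65. FOSL1 (ENSG00000175592, chr11:65892049-65900573), which encodes the FRA1 subunit, stood at 51.5 CPM in the control, 204 with CB and 92.5 with S1650b and was 3.96-fold higher (3.7 to 4.25). JUN stood at 46.4 CPM in the control, 134 with CB and 146 with S1650b, and FOSB at 11.9 CPM in the control, 36.5 with CB and 51.9 with S1650b, with folds of 2.88 and 3.07. Both were higher again in S1650b than in CB, whereas FOSL1 was highest in CB. Within the family the subunits differed: FOSL2 and JUNB had folds of 0.766 and 0.794, below 1, and JUND 1.0. Among other immediate early genes EGR3 was 2.94-fold higher, NR4A1 2.32-fold higher, PHLDA1 2.18-fold higher and CCN1, a matricellular protein, 1.97-fold higher, while MYC had a fold of 1.2 and EGR1 of 1.27. CCN2, which is often induced together with CCN1, had 16 counts in the control, 17 with CB and 14 with S1650b and did not reach the filter.

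The lowest median of the 55 lists belonged to genes that restrain PI3 kinase and growth or are linked to FOXO factors. Insulin and growth factor signalling keeps these factors out of the nucleus. This list too was chosen with earlier results of these data known, which limits what its rank can show. Of 24 tested members, 16 were lower and 1 higher, with a median log2 fold of −1.05. PIK3IP1 (ENSG00000100100, chr22:31281593-31292534), a membrane protein that inhibits the PI3 kinase catalytic subunit, stood at 72.6 CPM in the control, 11.6 with CB and 67.2 with S1650b and was 6.24-fold lower (5.43 to 7.19). TNFSF10, the death ligand TRAIL (ENSG00000121858, chr3:172505508-172523507), stood at 120.3 CPM in the control, 20.6 with CB and 78.2 with S1650b and was 5.84-fold lower (5.26 to 6.5). TXNIP, an inhibitor of thioredoxin and of glucose uptake, stood at 177 CPM in the control, 50.1 with CB and 216 with S1650b and was 3.53-fold lower. In all 3 cases the CB library was the lowest, and the S1650b library lay nearer to the control.

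Most other members of that list were lower too. TP53INP1, a stress protein of autophagy and cell death, had 159 counts in the control, 23 with CB and 473 with S1650b, and was 7.06-fold lower (4.54 to 11.5) in CB. KLF9, a transcription factor, was 4.65-fold lower, PIK3R3, a regulatory PI3 kinase subunit, 4.07-fold lower, and SESN3, a sestrin that restrains mTORC1, 2.94-fold lower. YPEL2, YPEL3 and YPEL5, small Yippee-like proteins, were 5.11, 3.0 and 2.5-fold lower. BCL6, FOXO4, CCNG2, BTG1, INSR and RBL2 were 2.24, 2.09, 2.05, 1.8, 1.77 and 1.53-fold lower. IRS1, the adaptor of the insulin receptor, was the exception at 25.7 CPM in the control, 63.3 with CB and 32 with S1650b, 2.46-fold higher (2.22 to 2.73) in CB. FOXO1 and FOXO3 themselves had folds of 1.04 and 0.903, and IRS2 of 0.923.

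**Figure D3:**
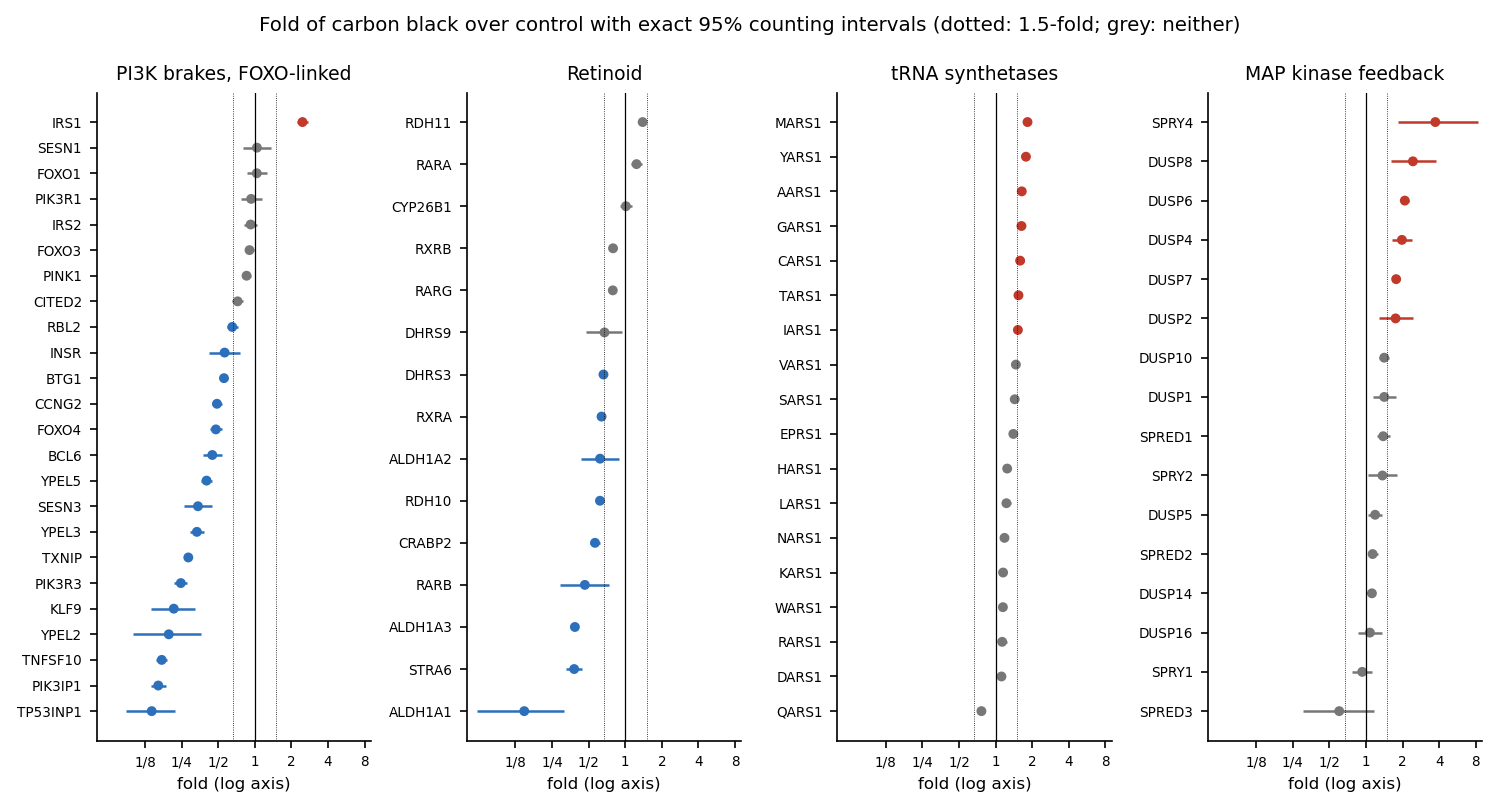
Each point is the fold of a tested list member on a log axis, with its exact 95% counting interval. The lists are the PI3 kinase brakes and FOXO-linked genes, retinoid genes, tRNA synthetases and MAP kinase feedback genes. Red and blue mark members past 1.5-fold higher (1, 0, 7 and 6) and lower (16, 9, 0 and 0), and the dotted lines stand at 1.5-fold.

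Several transcripts linked to amino acid supply were also higher in the carbon black library. ATF4 is translated when the kinases of the integrated stress response act on initiation factor eIF2, and it then raises genes for making, importing and charging amino acids. ATF4 itself stood at 401 CPM in the control, 657 with CB and 312 with S1650b and was 1.64-fold higher (1.59 to 1.68). Of 17 tested ATF4 targets and amino acid synthesis genes, counting ATF4, 7 were higher and 0 lower, with a median log2 fold of 0.50. CHAC1 (ENSG00000128965, chr15:40952962-40956519), which degrades glutathione, stood at 1.42 CPM in the control, 10.7 with CB and 2.51 with S1650b and was 7.55-fold higher (5.08 to 11.6). PSAT1 (ENSG00000135069, chr9:78297143-78330093), an aminotransferase of serine synthesis, stood at 167 CPM in the control, 530.1 with CB and 149 with S1650b and was 3.18-fold higher (3.06 to 3.31). STC2, a secreted glycoprotein, was 2.73-fold higher, MTHFD2, a mitochondrial folate enzyme, 2.24-fold higher, and GPT2, an alanine aminotransferase, and TRIB3, a pseudokinase, both 1.94-fold higher. The CB library was the highest of the 3 for each of these genes.

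The earlier and later steps of serine synthesis differed in size from PSAT1, with folds of 1.38 for PHGDH and 1.28 for PSPH. DDIT3, the death-linked factor CHOP, had a fold of 1.3, although 39.6% of its exon bases overlap another gene. SESN2 and CTH had folds of 1.01 and 0.972. DDIT4, an mTORC1 inhibitor, had a fold of 0.698, below 1, with 41.2% of its exons overlapped.

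Cytoplasmic tRNA synthetases, which load amino acids onto tRNAs, stood above the control with 1 exception. Of 18 tested members 7 were higher and 0 lower, 17 had a fold above 1, and the median log2 fold was 0.50. Over all genes tested 50.4% had a fold above 1. MARS1, YARS1, AARS1 and GARS1, for methionine, tyrosine, alanine and glycine, were 1.83, 1.78, 1.64 and 1.63-fold higher. MARS1 stood at 137 CPM in the control, 250.1 with CB and 112 with S1650b, and CB was the highest of the 3 libraries. QARS1, for glutamine, was the only one with a fold below 1, at 0.764. Among 15 tested amino acid transporters 4 were higher and 0 lower (median log2 fold 0.37). SLC7A11, the cystine importer, stood at 21 CPM in the control, 44.1 with CB and 211 with S1650b, SLC43A1, an importer of large neutral amino acids, was 2.19-fold higher, and SLC1A4, which carries alanine and serine, 1.86-fold higher. SLC7A5 and SLC3A2, which pair as the main leucine exchanger, had folds of 1.13 and 1.11.

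Proline metabolism held a gene that ranked second among those lower. PRODH (ENSG00000100033, chr22:18912777-18936553), the mitochondrial enzyme that starts proline breakdown, had 148 counts in the control, 7 with CB and 11 with S1650b, and was 21.6-fold lower (10.2 to 54.7) in CB. It was low in both particle libraries. PYCR1 and OAT, which act in proline and ornithine synthesis, were 1.59 and 1.51-fold higher. Of 9 tested members, 2 were higher and 1 lower, and 29.7% of the exon bases of PYCR1 overlap another gene.

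Promoter sequence of 3 genes that head their groups is shown because each holds a motif of the factor that textbook work ties to it. It was taken from RefSeq promoters on GRCh38.p14 and is written 5′ to 3′ on the strand of the gene, with the motif in capitals. For HSPA6 the 250 bases before the RefSeq start are given (plus strand, chr1:161524290-161524539). For CHAC1 (plus strand, chr15:40953251-40953280) and CYP1A1 (minus strand, chr15:74725569-74725598) 30 bases around the motif are given, since the GENCODE gene reaches into the window.
HSPA6: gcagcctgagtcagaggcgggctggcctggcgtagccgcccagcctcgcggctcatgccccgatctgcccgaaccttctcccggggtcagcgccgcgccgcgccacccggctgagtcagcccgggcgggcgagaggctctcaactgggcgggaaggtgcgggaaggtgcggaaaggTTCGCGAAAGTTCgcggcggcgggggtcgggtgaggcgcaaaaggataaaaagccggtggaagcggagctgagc
CHAC1: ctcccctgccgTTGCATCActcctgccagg
CYP1A1: tccagggaaggagGCGTGgccacacgtaca
In HSPA6 the capitals mark a heat shock element, searched as 3 alternating GAA and TTC units with 2 bases between neighbours, which starts 74 bases before the RefSeq start. Such an element was found in 0.439% of the 27305 RefSeq promoters of the same length, searched on both strands. In CHAC1 they mark the composite element of ATF4 and C/EBP (TGATG, any base, then AA, searched on both strands), starting 209 bases before the RefSeq start and present in 3.19% of promoters. In CYP1A1 they mark the AHR core GCGTG, 57 bases before the RefSeq start, which is short and was found in 31.9% of promoters. The HSPA6 window also holds 2 AP-1 motifs (TGANTCA, in 6.6% of promoters), the 250-base window of CHAC1 1 AHR core, and that of CYP1A1 1 TATA box (TATAAA, in 11.1% of promoters). A match is a description of these letters and not evidence of binding. RefSeq promoters were matched for 10320 of the 13963 genes tested but only for 123 of the 232 higher and 448 of the 748 lower genes, so no comparison of motifs between these sets was made.

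Heat shock genes encode chaperones that hold or refold other proteins. Of 21 tested members, 9 were higher and 0 lower, with a median log2 fold of 0.41. HSPA6 (ENSG00000173110, chr1:161524540-161526910), a strictly inducible HSP70, had 0 counts in the control, 113 with CB and 8 with S1650b. It was at least 36.9-fold higher in CB, with the control set to a floor of 3 counts, and the exact interval starts at 29.5. It was the only tested gene with 0 counts in the control. HSPA8, the constitutive HSC70, stood at 1351 CPM in the control, 2907 with CB and 862 with S1650b, 2.15-fold higher in CB, and its gain of 1555 CPM was the largest of any gene called past 1.5-fold. Both genes were highest in CB.

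Among the other chaperones HSPH1, HSP90AA1, CHORDC1, HSPD1, FKBP4, HSPE1 and AHSA1 were 1.77, 1.74, 1.67, 1.65, 1.58, 1.56 and 1.52-fold higher. The near-identical inducible genes HSPA1A and HSPA1B, summed because reads may not be told apart between them, had 8095 counts in the control, 9428 with CB and 8836 with S1650b, a fold of 1.14 (1.11 to 1.17). DNAJB1 and BAG3, further targets of the heat shock factors, had folds of 1.16 and 1.13, and HSF1 itself 1.04. HSPB1, a small heat shock protein, had a fold of 0.999.

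Complexes that fold, degrade and synthesise proteins differed by small amounts over many subunits. Of 14 tested genes of the CCT chaperonin and prefoldin, which fold actin and tubulin, 0 passed 1.5-fold but 13 had a fold above 1, and the median log2 fold was 0.44. CCT5 was the highest at 1.49 and PFDN5 the lowest at 0.916. All 33 tested proteasome subunits had a fold above 1, from 1.01 for PSMB4 to 1.51 for PSMD1, the 1 member past the threshold, with a median log2 fold of 0.29. Of 31 tested genes of ribosome biogenesis and RNA polymerase I, 6 were higher (10 with the deposited FPKM) and 1 lower, with a median of 0.43. LYAR was 1.71-fold higher, RRP9 1.59-fold higher and NOP56 1.54-fold higher, while NOP53 was 1.86-fold lower.

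Ribosomal protein genes went the other way by less. Of 40 tested, 39 had a fold below 1 and 0 passed 1.5-fold, with a median log2 fold of −0.19, from 0.703 for RPL28 to 1.03 for RPL27. The genes of endoplasmic reticulum stress held 1 higher and 0 lower of 23 (median 0.25). XBP1, a factor of the unfolded protein response, was 1.65-fold higher, and HSPA5, its main chaperone target, had a fold of 1.23.

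**Figure D4:**
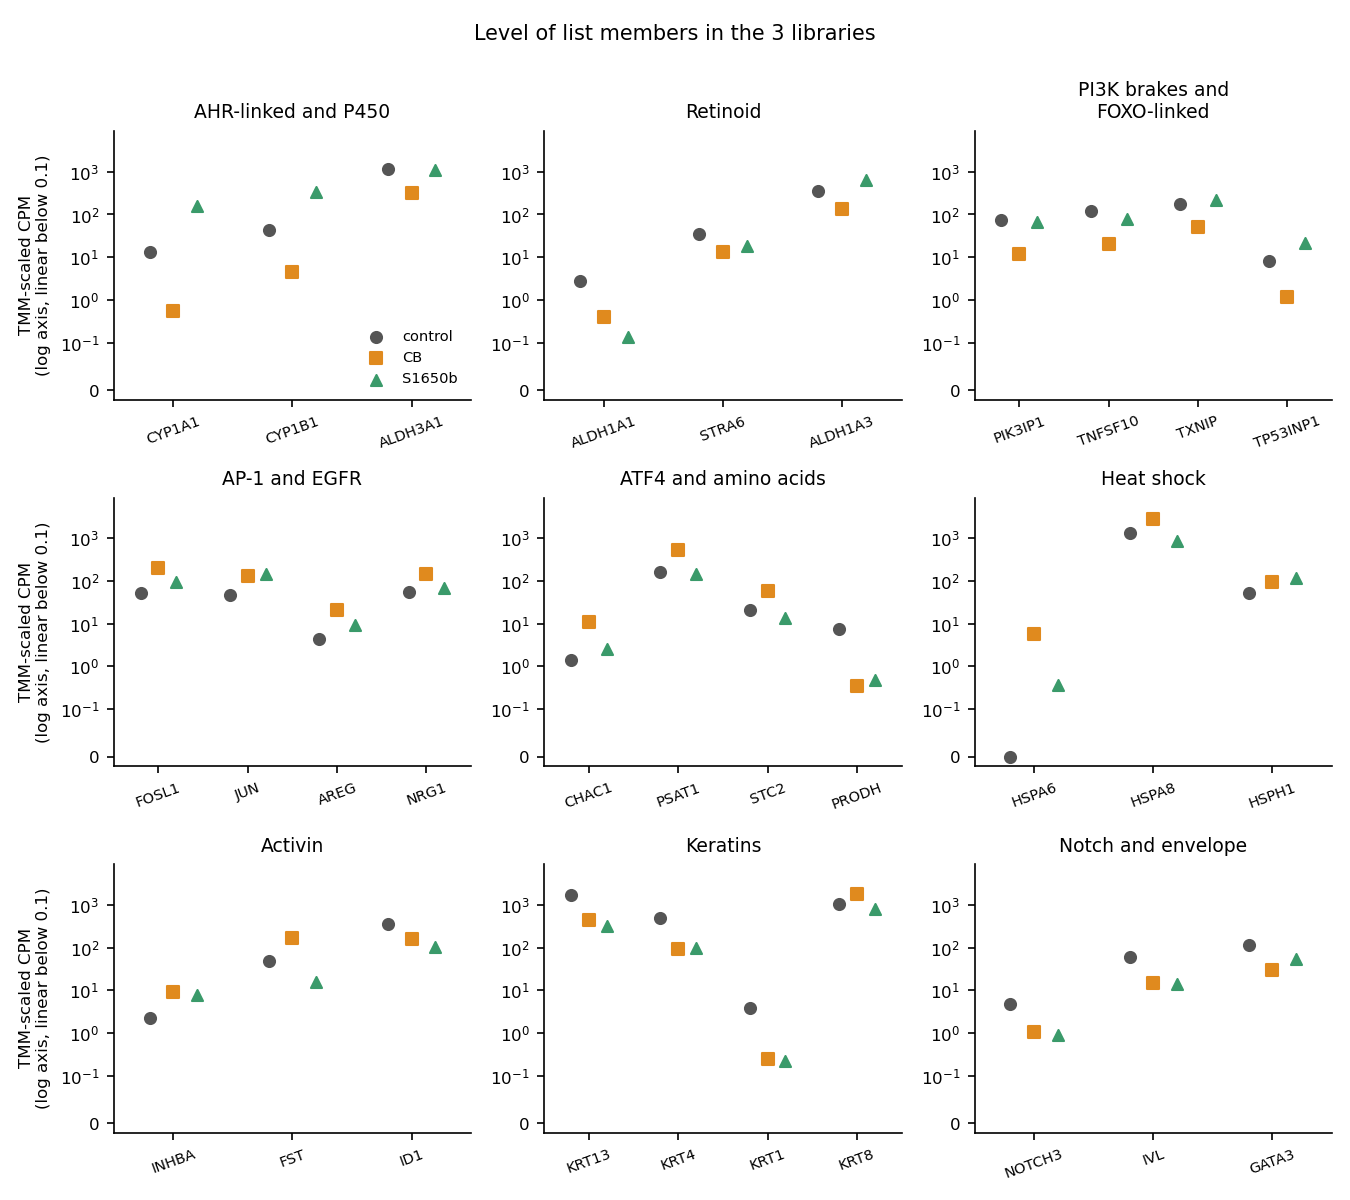
Points give the TMM-scaled CPM of named genes in the control (circles), CB (squares) and S1650b (triangles) libraries on a log axis that is linear below 0.1, with 1 library a group and no error bar. CYP1A1 is lowest in CB and highest in S1650b, and the PI3 kinase brakes and FOXO-linked genes shown are lowest in CB. KRT13, KRT4, KRT1, NOTCH3 and IVL are below the control in both particle libraries.

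AHR targets were lower in part, and CYP1A1 ranked first of all lower genes. CYP1A1 (ENSG00000140465, chr15:74719542-74725610), the P450 that serves as the standard readout of AHR, had 257 counts in the control, 11 with CB and 3564 with S1650b. It was 23.9-fold lower (13.1 to 48.4) in CB, and the S1650b library was the highest. CYP1B1 stood at 43.7 CPM in the control, 4.38 with CB and 339.6 with S1650b and was 9.99-fold lower (8.01 to 12.6). ALDH3A1, an aldehyde dehydrogenase, stood at 1185 CPM in the control, 314 with CB and 1084 with S1650b and was 3.77-fold lower (3.67 to 3.88), and close to the control in S1650b. Of 14 tested members of the AHR list 4 were lower and 1 higher (median log2 fold −0.31), and CYP4F3, another P450, was 2.25-fold lower. Other canonical targets moved less or the other way: TIPARP, an AHR-induced polymerase, had a fold of 1.15, NQO1 of 1.3 and AHRR, the AHR repressor, a fold of 0.652 (0.372 to 1.12). AHR itself had a fold of 1.06, although 32.3% of its exon bases overlap another gene. CYP4F11, at a fold of 1.5 (1.3 to 1.74), was the 1 member counted as higher.

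Retinoid genes, which make, carry and sense the active form of vitamin A, were lower in 9 of 15 tested members and higher in 0, with a median log2 fold of −0.65. Of the enzymes that make retinoic acid, ALDH1A1 had 53 counts in the control, 8 with CB and 3 with S1650b, 6.77-fold lower (3.2 to 16.5) in CB. ALDH1A3 stood at 351 CPM in the control, 135 with CB and 651 with S1650b and was 2.6-fold lower, with 28.6% of its exons overlapped, and ALDH1A2 was 1.61-fold lower. ALDH1A1 was low in both particle libraries, whereas ALDH1A3 was low in CB and high in S1650b. RDH10 and DHRS3, which interconvert retinol and retinal, were 1.61 and 1.51-fold lower. STRA6, the membrane receptor that takes up retinol, stood at 34.8 CPM in the control, 13.2 with CB and 18.4 with S1650b and was 2.63-fold lower (2.28 to 3.04). CRABP2, which carries retinoic acid to the nucleus, was 1.77-fold lower. Among receptors RARB, which retinoic acid itself induces, was 2.15-fold lower and RXRA 1.57-fold lower, while RARA and RARG had folds of 1.24 and 0.79. CYP26B1, which degrades retinoic acid, had a fold of 1.01.

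Antioxidant targets of NRF2 held 5 higher and 1 lower of 26 tested members, with a median log2 fold of 0.33 and 21 folds above 1. The higher members were SLC7A11, AKR1C1, GCLM, OSGIN1 and ABCC2, at 2.1, 1.81, 1.68, 1.65 and 1.64-fold higher. AKR1C1, AKR1C2 and AKR1C3 are near-identical, and their summed counts gave a fold of 1.3 (1.26 to 1.34). TXNRD1, thioredoxin reductase, stood at 323 CPM in the control, 390.1 with CB and 1103 with S1650b, so it was far higher in S1650b than in CB. HMOX1, heme oxygenase, had 18 counts in the control, 19 with CB and 27 with S1650b and did not reach the filter. PIR was 1.54-fold lower. Of 11 tested metallothioneins and zinc transporters 1 was higher and 2 lower (median −0.27). Of those that bind zinc and copper, MT2A and MT1E had folds of 0.693 and 0.719, MT1X was 1.83-fold lower, and SLC30A1, a zinc exporter, 1.88-fold lower, while SLC39A10, a zinc importer, was 1.66-fold higher.

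Cholesterol synthesis genes, which the factor SREBP2 drives, stood above the control in 21 of 24 cases. Of these 24, 5 were higher and 0 lower past 1.5-fold, with a median log2 fold of 0.40. HMGCS1, which makes the precursor of mevalonate, stood at 104 CPM in the control, 250.2 with CB and 232 with S1650b and was 2.4-fold higher (2.28 to 2.53). MSMO1, FDPS and CYP51A1, further steps of the pathway, were 1.61, 1.59 and 1.51-fold higher, and 83.2% of the exon bases of CYP51A1 overlap another gene. The count of higher members was 3 with upper quartile scaling and 8 with median of ratios or the deposited FPKM, with SQLE and CYP51A1 at folds of 1.49 and 1.51. SREBF2, which encodes SREBP2, had a fold of 0.90 (0.877 to 0.924). Of 19 tested fatty acid genes 4 were higher and 1 lower (median 0.29). LPIN1, a phosphatidate phosphatase, was 1.79-fold higher, ELOVL6 and ACSS2 1.66 and 1.58-fold higher, and FASN, fatty acid synthase, stood at 1580.0 CPM in the control, 2487 with CB and 1583 with S1650b, 1.57-fold higher in CB. SCARB1, the HDL receptor, was 1.78-fold higher.

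In the TGF-beta and activin list the ligand activin and its antagonist were both higher. Of 28 tested members 3 were higher (10.7%, against 4.83% of all genes) and 5 lower (17.9%, against 10.7%), with a median log2 fold of −0.03. INHBA (ENSG00000122641, chr7:41667168-41705834), the subunit of activin A, stood at 2.19 CPM in the control, 8.9 with CB and 7.7 with S1650b and was 4.07-fold higher (2.91 to 5.82). FST (ENSG00000134363, chr5:53480409-53487134), follistatin, which binds and blocks activin, stood at 47.3 CPM in the control, 168 with CB and 15.5 with S1650b and was 3.54-fold higher (3.29 to 3.81). INHBA was high in both particle libraries, whereas FST was high in CB and lowest in S1650b. TGFB2 was 1.6-fold higher, with 26.6% of its exons overlapped. ID1, ID2 and ID3, inhibitors of differentiation that BMP signals induce, stood lower: ID1 at 362 CPM in the control, 161 with CB and 101 with S1650b, 2.25-fold lower, ID2 2.37-fold lower and ID3 2.56-fold lower. The decoy receptor BAMBI was 1.59-fold lower, and SMAD6 and SMAD7 had folds of 0.916 and 1.05.

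Notch, a contact signal that starts spinous differentiation, showed 5 lower and 0 higher of 17 tested members (median log2 fold −0.15), and 2 lower with the deposited FPKM. NOTCH3 had 92 counts in the control, 21 with CB and 20 with S1650b, and was 4.48-fold lower (2.76 to 7.57) in CB. NOTCH1 stood at 311 CPM in the control, 199 with CB and 154 with S1650b and was 1.56-fold lower. The target genes HES1, HES2 and HES4 were 1.57, 1.84 and 1.54-fold lower. All 5 were below the control in S1650b too. The ligands JAG1, JAG2 and DLL1 had folds of 0.782, 0.908 and 0.873, and NOTCH2 of 1.15. In the WNT list 2 of 20 were higher and 4 lower (median −0.03), and 2 lower with the deposited FPKM. WNT7A was 1.85-fold higher and DKK3 2.06-fold higher, while WNT10A, WNT5A, WNT7B and WNT4 were 1.85, 1.69, 1.66 and 1.51-fold lower. Targets of YAP and TEAD, read out when cells spread, had 4 higher and 0 lower of 20 (median 0.23), namely CCN1, ANKRD1, AXL and TGFB2.

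Transcription factors of epidermal differentiation had 5 lower and 1 higher of 21 tested members, with a median log2 fold of −0.37. GATA3 (ENSG00000107485, chr10:8045378-8075203) stood at 113 CPM in the control, 29.3 with CB and 54.5 with S1650b and was 3.85-fold lower (3.51 to 4.22). ELF3, an epithelial ETS factor, stood at 323 CPM in the control, 106 with CB and 151 with S1650b and was 3.04-fold lower. POU2F3, of suprabasal cells, had 84 counts in the control, 14 with CB and 71 with S1650b and was 6.13-fold lower. GRHL3, a grainyhead factor of barrier formation, was 1.98-fold lower and CEBPA 1.68-fold lower. KLF4 had a fold of 0.914. SOX7 was 1.9-fold higher, with 39.4% of its exons overlapped.

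Of 10 tested differentiation and simple keratins 3 were higher and 4 lower (median log2 fold −0.18), and of 6 basal and wound keratins 0 were higher and 1 lower (median −0.21). KRT4 (ENSG00000170477, chr12:52806549-52814551), a keratin of mucosal suprabasal cells, stood at 496 CPM in the control, 94.3 with CB and 96.6 with S1650b and was 5.26-fold lower (5.01 to 5.53). KRT13 (ENSG00000171401, chr17:41500981-41505705), its partner, stood at 1668 CPM in the control, 440.0 with CB and 323 with S1650b and was 3.79-fold lower (3.7 to 3.88), a difference of −1228 CPM. KRT1 had 77 counts in the control, 5 with CB and 5 with S1650b, 15.7-fold lower (6.46 to 49.8) in CB, and KRT3 was 4.01-fold lower. All 4 were low in both particle libraries. KRT15 (ENSG00000171346, chr17:41513743-41522529), a basal keratin, stood at 2401 CPM in the control, 872 with CB and 871 with S1650b, 2.75-fold lower in CB, and its difference of −1528 CPM was the largest loss of any gene called past 1.5-fold. KRT8 and KRT18, the pair of simple epithelia, were 1.75 and 1.62-fold higher, and KRT80 was 1.77-fold higher. KRT14 had a fold of 0.961 and KRT10 of 1.11. The near-identical KRT6 genes, summed, had a fold of 1.24 (1.19 to 1.29).

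Proteins of the cornified envelope and the epidermal differentiation complex reached the filter in only 14 of 35 listed genes. Of these 9 were lower and 0 higher, with a median log2 fold of −0.72. IVL, involucrin, stood at 61.7 CPM in the control, 14.4 with CB and 13.7 with S1650b and was 4.27-fold lower (3.76 to 4.88). TGM1, which crosslinks the envelope, was 2.5-fold lower, SCEL, sciellin, 2.15-fold lower, and S100A7 2.64-fold lower. HRNR, CNFN, S100A9, FLG and S100A8 were 1.91, 1.79, 1.69, 1.6 and 1.54-fold lower. Among LY6 surface proteins, 5 of 12 were lower and 1 higher (median −0.42). LYPD2 had 232 counts in the control, 41 with CB and 4 with S1650b and was 5.78-fold lower (4.13 to 8.27), and LY6D was 2.14-fold lower. KLK11, a kallikrein protease, and SLPI, an inhibitor of such proteases, were 2.91 and 1.99-fold lower, while SERPINB7 was 1.7-fold higher.

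Of 18 tested tight junction genes 4 were lower (22.2%, against 10.7% of all genes) and 1 higher (5.56%, against 4.83%), with a median log2 fold of −0.11. TJP3, a scaffold, stood at 50.5 CPM in the control, 13.1 with CB and 23.8 with S1650b and was 3.85-fold lower (3.36 to 4.42). CLDN1, the main epidermal claudin, stood at 1270.0 CPM in the control, 677 with CB and 751 with S1650b and was 1.88-fold lower, CLDN16 was 2.3-fold lower and CGN, cingulin, 1.6-fold lower. CLDN23 was 2.1-fold higher. Occludin, OCLN, stood at a fold of 0.995, and the scaffold TJP1 at 1.32. No desmosome gene of 11 passed 1.5-fold, with a median of −0.37 and folds from 0.693 for DSC3 to 1.08 for DSG2. Hemidesmosome and basement membrane genes held 1 higher and 1 lower of 21 (median 0.01), with COL4A1, a type IV collagen chain, 1.74-fold higher and NID1 1.59-fold lower. In barrier lipid genes 2 of 17 were higher and 2 lower (0 lower with the deposited FPKM): SPHK1, sphingosine kinase, was 1.91-fold higher and CERS4 had 7 counts in the control, 28 with CB and 25 with S1650b, while ABCA12, the lipid transporter of lamellar bodies, had 29 counts in the control, 13 with CB and 85 with S1650b.

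Interferon-stimulated genes were lower in 13 of 36 tested members and higher in 0, with a median log2 fold of −0.49 and 34 folds below 1. RSAD2, the antiviral enzyme viperin, stood at 10.0 CPM in the control, 3.28 with CB and 4.92 with S1650b and was 3.05-fold lower (2.3 to 4.09). OASL stood at 128 CPM in the control, 57.1 with CB and 25.7 with S1650b and was 2.24-fold lower, and IRF1 and STAT2, 2 factors of interferon signalling, were both 1.74-fold lower. IFIT1 and MX1 had folds of 0.821 and 0.822, short of the threshold. HLA class I and antigen processing genes held 3 lower and 0 higher of 20, 17 folds below 1 and a median of −0.41. HLA-F, PSMB10 and ERAP1 were 1.92, 1.79 and 1.51-fold lower. GBP2, a guanylate binding protein (ENSG00000162645, chr1:89106132-89150456), was 6.04-fold lower (4.63 to 7.98).

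Complement components were prominent among lower genes of innate defence. Of 19 tested complement and coagulation genes 7 were lower and 1 higher (median −0.39). C3, the central component, stood at 239 CPM in the control, 115 with CB and 57.4 with S1650b and was 2.08-fold lower (1.98 to 2.19). C1R and C1S, the proteases of the first component, were 2.27 and 2.02-fold lower, CFB 2.31-fold lower, CFI 2.22-fold lower and PROS1 2.93-fold lower. Of the exon bases 45.5% in CFB and 32% in CFI overlap another gene. TFPI, which inhibits tissue factor, was 1.63-fold higher, and F3, tissue factor itself, had a fold of 1.44.

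Cytokine transcripts went both ways. Of 24 tested members 6 were higher and 4 lower, with a median log2 fold of −0.05. CSF2, the growth factor GM-CSF, had 15 counts in the control, 68 with CB and 20 with S1650b and was 4.44-fold higher (2.51 to 8.36). CXCL8, a neutrophil chemokine, stood at 9.0 CPM in the control, 27.8 with CB and 4.7 with S1650b and was 3.08-fold higher (2.6 to 3.67). CXCL1, IL1A, IL1B and PTGS1 were 1.87, 1.86, 1.74 and 1.7-fold higher. CSF2, CXCL8, CXCL1 and PTGS1 were highest in CB, whereas IL1A and IL1B were above the control in both particle libraries. PTGES, the terminal enzyme of prostaglandin E synthesis, stood at 669 CPM in the control, 281 with CB and 433 with S1650b and was 2.38-fold lower (2.31 to 2.46). IL11, CCL5 and PTGS2 were 2.1, 1.59 and 1.52-fold lower. The NF-kB list held 1 higher and 2 lower of 18 (median 0.07): TNFAIP3, a feedback inhibitor, was 1.93-fold higher, TNFAIP2 2.3-fold lower and BIRC3 1.6-fold lower, and NFKBIA had a fold of 0.867.

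Matrix genes held 6 higher and 4 lower of 26 tested members (median −0.15). TNC (ENSG00000041982, chr9:115019578-115118257), tenascin C, a glycoprotein of wounds, stood at 10.9 CPM in the control, 42.6 with CB and 5.19 with S1650b and was 3.9-fold higher (3.35 to 4.55). THBS1, thrombospondin, stood at 436 CPM in the control, 837 with CB and 812 with S1650b and was 1.92-fold higher. TNC was high in CB alone, THBS1 in both particle libraries. SERPINE2, an inhibitor of plasminogen activators, was 2.2-fold higher, and the hyaluronan synthases HAS2 and HAS3 were 1.94 and 1.85-fold higher. The proteases MMP13, MMP1 and MMP28 were 3.13, 2.56 and 1.92-fold lower, and TIMP3, an inhibitor of such proteases, 2.23-fold lower. In the actin list 2 of 27 were higher and 0 lower (median 0.15), with ACTB at 2360.0 CPM in the control, 3574 with CB and 1950.0 with S1650b, 1.51-fold higher in CB, and CALD1 1.75-fold higher. DCN (ENSG00000011465, chr12:91140484-91183123), the matrix proteoglycan decorin and a fibroblast marker, stood at 54.2 CPM in the control, 7.61 with CB and 1.83 with S1650b and was 7.13-fold lower (6.01 to 8.5). BGN, biglycan, a related proteoglycan, had 56 counts in the control, 4 with CB and 1 with S1650b. DCN and BGN were low in both particle libraries.

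Genes of growth and division stood slightly above the control in most cases. Of 32 tested DNA replication genes 3 were higher (1 with upper quartile scaling) and 0 lower, 30 had a fold above 1 and the median log2 fold was 0.26. RFC3, CDC45 and MCM10 were 1.61, 1.53 and 1.51-fold higher. Of 28 mitosis genes 1 was higher and 0 lower (median 0.23), and PLK1 stood at 138 CPM in the control, 175 with CB and 18.8 with S1650b, low in S1650b only. Among 23 cyclins, CDKs and inhibitors 1 was higher and 1 lower (median 0.25): CDKN2B, the inhibitor p15, was 2.08-fold lower and CCNE2 1.53-fold higher. Targets of p53 held 2 higher (8.33%, against 4.83% of all genes) and 3 lower (12.5%, against 10.7%) of 24, with a median of 0.04. BTG2, an antiproliferative gene, stood at 145 CPM in the control, 33.6 with CB and 83.6 with S1650b and was 4.3-fold lower. DDB2 was 1.56-fold lower and AEN 1.99-fold higher. CDKN1A, p21, had a fold of 1.12 and MDM2 of 1.15.

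Histone transcripts were lower in 11 of 16 tested genes and higher in 1, with a median log2 fold of −0.82. Most of the list are replication-dependent histones, whose RNA normally ends in a stem-loop with no poly(A) tail. H4C15 had 59 counts in the control, 4 with CB and 63 with S1650b and was 15.1-fold lower (5.58 to 57.1), with S1650b at the level of the control. Counts of similar histone genes were not summed, so the gene of origin of these reads was not checked. H2AC8, H4C8, H1-2 and H2AC6 were 2.58, 2.55, 1.91 and 1.59-fold lower. H1-4 went the other way on 5 counts in the control, 31 with CB and 12 with S1650b. The sources used here do not give how RNA was selected, and its part in the histone counts was not tested.

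Among genes of energy metabolism, those of the respiratory chain differed little. In glycolysis and the hypoxia response 3 of 32 were higher (9.38%, against 4.83% of all genes) and 1 lower (3.12%, against 10.7%) (median 0.24). VEGFA, the vascular growth factor, stood at 147 CPM in the control, 333 with CB and 116 with S1650b and was 2.27-fold higher (2.17 to 2.37), ENO2 and HK2 were 2.21 and 1.68-fold higher, and NDRG1 was 1.8-fold lower. HIF1A had a fold of 1.2. Nuclear genes of the respiratory chain held 1 higher and 0 lower of 32 (median 0.02), and of 13 mitochondrially encoded genes 11 had a fold below 1 (median −0.19). Among autophagy and lysosome genes 5 of 35 were lower (14.3%, against 10.7% of all genes) and 0 higher (median −0.14). With median of ratios 3 were lower. CTSS, cathepsin S, led the 5 at 2.77-fold lower. GABARAPL1 and ULK1, of autophagosome formation, were both 1.54-fold lower. GLUL, glutamine synthetase, stood at 801 CPM in the control, 314 with CB and 589 with S1650b and was 2.55-fold lower (2.47 to 2.62). In the circadian list 2 of 15 were higher and 2 lower (median 0.04): DBP, an output of the clock, was 2.22-fold lower and BHLHE41 1.87-fold lower, while BHLHE40 and CRY1 were 1.55 and 1.51-fold higher.

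Genes outside the lists that ranked among the 20 highest or lowest, by the interval end nearest to 1, had varied roles. NFATC2, a calcium-regulated transcription factor, had 1 count in the control, 32 with CB and 35 with S1650b, and was 31.3-fold higher (5.23 to 1275). ANXA10, an annexin, had 7 counts in the control, 67 with CB and 88 with S1650b. HS3ST2, a heparan sulfate sulfotransferase, stood at 3.3 CPM in the control, 15.3 with CB and 32 with S1650b and was 4.64-fold higher. PTHLH, the parathyroid hormone-related protein, stood at 28.7 CPM in the control, 89.5 with CB and 85.3 with S1650b and was 3.12-fold higher (2.83 to 3.43). These 4 were high in both particle libraries. SH2D5 was 3.72-fold higher and was highest in CB.

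On the lower side ALPG, a placental-type alkaline phosphatase, had 788 counts in the control, 103 with CB and 99 with S1650b and was 7.82-fold lower (6.36 to 9.7). CYP4B1, a P450, was 6.95-fold lower, MTUS2 7.23-fold lower, and ATP6V1B1, a proton pump subunit, 7.2-fold lower, with 62.4% of its exons overlapped. All 4 were low in both particle libraries. CLEC3A had 30 counts in the control, 0 with CB and 8 with S1650b, at least 10.2-fold lower in CB with a floor of 3 counts. POU2AF1 had 29, 0 and 6 counts, at least 9.88-fold lower.

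SMIM11, SMN1 and U2AF1 also ranked among the 20 highest, but each has a near-identical copy, so the gene of origin is uncertain. SMIM11 summed with SMIM11B had 10 counts in the control, 179 with CB and 122 with S1650b, and was 17.5-fold higher in CB (9.31 to 37.2). SMN1 summed with SMN2 had 454, 1341 and 430 counts, 2.89-fold higher (2.6 to 3.22). U2AF1 with U2AF1L5 had 379, 1103 and 273 counts, 2.85-fold higher (2.53 to 3.21).

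Shares called by class and level depend on the filter, which low genes can pass through the library in which they were high. Of 1270 tested long noncoding genes 13.7% were lower and 3.78% higher, with a median log2 fold of −0.27, against 4.32% and 1.19% of 11901 protein-coding genes. The share also differed by level: 21.7% of all genes with a mean under 2 CPM were called lower and 0.942% of those at 100 CPM or more. Within 5 to 20 CPM, 7.96% of 226 long noncoding genes and 3.41% of 2989 protein-coding genes were lower. Under 2 CPM the shares were 19.8% and 25.7%. The classes were also described with at least 1 CPM required in both libraries, a use of this filter chosen after seeing the data. Then 6.89% of 944 long noncoding and 2.67% of 11437 protein-coding genes were lower, and 4.15% of genes with a mean under 2 CPM. NEAT1, the scaffold RNA of paraspeckles, stood at 559.8 CPM in the control, 329 with CB and 1274 with S1650b and was 1.7-fold lower, HOTAIR was 1.98-fold lower and MIR210HG 2.2-fold lower. LUCAT1, a stress-induced RNA, had 12 counts in the control, 39 with CB and 100 with S1650b. Antisense genes are uncertain here because the strand used in counting is unknown.

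**Figure D5:**
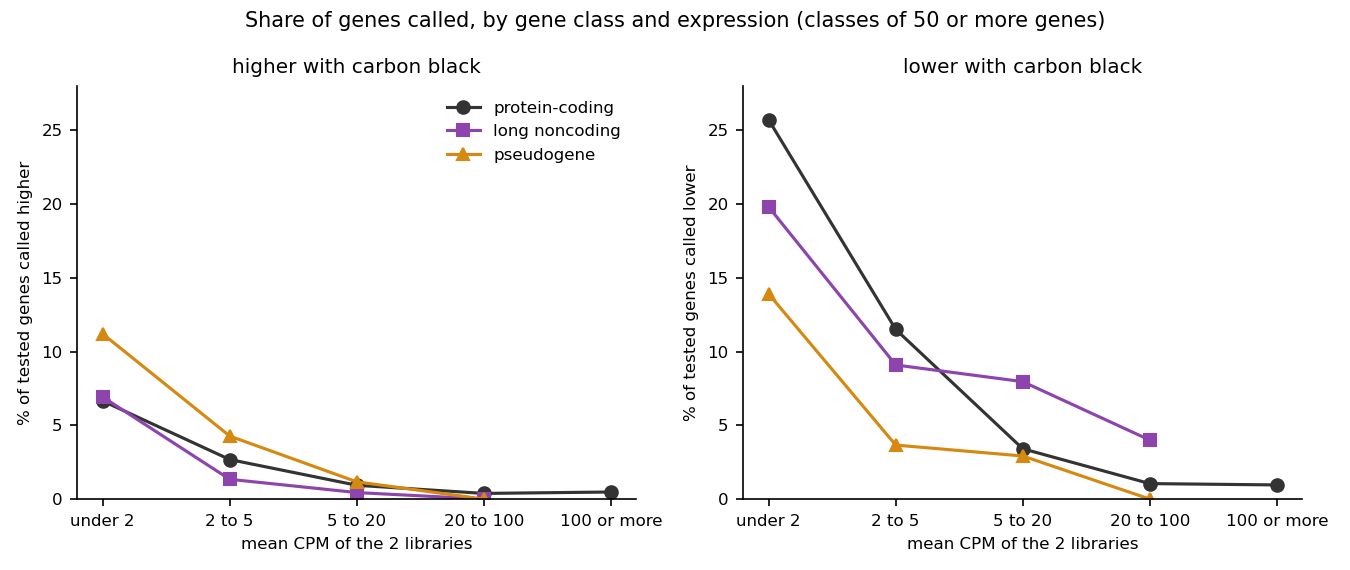
Lines give the share of tested genes called higher (left) or lower (right) by mean CPM of the 2 libraries, for protein-coding, long noncoding and pseudogene classes, where a class holds at least 50 genes. Genes need 1 CPM in either library, and the share lower goes from 25.7% of protein-coding genes under 2 CPM to 0.959% at 100 CPM or more.

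Some genes named above lost their 1.5-fold call under at least 1 other scaling of the counts, namely ACTB, AHSA1, CCNE2, CDC45, CRY1, CYP4F11, CYP51A1, MCM10, NOP56, OAT and PSMD1 on the higher side, and DHRS3, ERAP1, GABARAPL1, HES4, PIR, PTGS2, RBL2, S100A8, ULK1 and WNT4 on the lower side. With the deposited FPKM in place of scaled counts, ABCA12, ALDH1A2, BAMBI, BIRC3, DDB2, ERBB3, FLG, HES1, NID1, NOTCH1, RXRA and WNT5A lost their lower call as well.

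Processed pseudogenes, copies of messenger RNA in the genome, were called higher in 31 (9.12%) and lower in 12 (3.53%) of 340 cases. Over all genes tested the shares were 1.66% and 5.36%. With at least 1 CPM in both libraries 9 of 272 (3.31%) were higher and 2 (0.735%) lower, against 0.808% and 2.98% of all genes. Exons or reads shared with their parent genes make each processed pseudogene uncertain. XPOTP1, a copy of an exportin for tRNA, had 4 counts in the control, 36 with CB and 15 with S1650b. Among protein-coding genes the share lower was 6.29% in the highest of 4 equal classes of GC content and 2.89% in the lowest. The share higher was 1.38% and 0.841% in the same classes. By exon length the share lower was 6.32% in the shortest of 4 classes and 2.82% in the longest, and the share higher 1.51% and 1.01%. These classes were not split by expression level, with which the shares differ as well.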

How the data were processed

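Trizol was used for the extraction and a NEBNext Ultra RNA kit for the libraries, per the labels' protocols. The authors deposited 1 table of read counts per gene and 1 of FPKM values, and the counts were used here as deposited. CASAVA 1.7 and the mouse builds mm8 and mm9 are named in the submitters' processing notes, although the files hold human gene identifiers. The aligner, counter and strand setting were not given in the sources used here, nor was a human build.

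Counts were scaled by TMM (edgeR 4.0.16), and the deposited FPKM served as an alternative with 0.1 added. Exact 95% intervals are Clopper-Pearson intervals of the CB share of a gene's 2 counts. They treat each read as an independent draw and cover counting error only. No molecular identifiers are described, so PCR copies may be counted as separate reads, and the intervals may then be too narrow. No test between conditions was possible with 1 library a group. All 58735 gene identifiers matched GENCODE release 29, which gave gene positions (GRCh38) and exon overlaps. Counts of some near-identical copies were also summed, but not those of histone genes.

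Members and gene lists were chosen with earlier results of these data known. Genes were named by rule: the 20 higher and 20 lower genes whose interval end nearest to 1 lay farthest from it, the 10 largest gains and losses in CPM past 1.5-fold, the 5 top long noncoding genes a direction, up to 4 members past 1.5-fold per list and direction, and 28 set pathway genes. Other list members given as examples were chosen after their values were seen, and genes known only by an identifier were not described. Some genes that the rule names are not reported here. Alternatives changed the scaling (median of ratios with DESeq2 1.42.0, upper quartile, total counts), the filter and the fold.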

Additional observations from a re-analysis of the deposited data

How the results depend on the processing

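No paired analysis was possible because each group holds 1 library, and for the same reason no library could be left out. Against 232 genes higher and 748 lower, the counts stayed within 1.5 times with total counts, TMM on the 2 libraries alone, median of ratios, upper quartile, without mitochondrially encoded genes, and with a mean of at least 1 CPM as the filter. A fold of 1.5 gave 675 higher and 1493 lower, and a fold of 3 gave 79 and 253. No filter gave 463 and 1219, at least 5 CPM gave 71 and 255, and at least 1 CPM in both libraries gave 105 and 387. Protein-coding genes alone gave 142 higher. The deposited FPKM values gave 466 lower. At a mean of at least 20 CPM, an alternative chosen after seeing the data, 29 were higher and 74 lower. The cause of these differences beyond the number of genes tested was not tested. Of 244 named genes past 1.5-fold, 33 lost the call in at least 1 of 6 scalings and 0 reversed, while CCT5, SQLE and F3 gained one. Of 60 lists, 11 had a median that changed sign in at least 1 scaling. Counting error limits genes near 1 CPM, where a gene has about 20 counts a library.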

Other observations

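Some list members did not reach 1 CPM in CB or the control and so had no fold. TNF, the inflammatory cytokine, had 0 counts in the control, 19 with CB and 11 with S1650b. CLDN5, an endothelial claudin, had 0 counts in the control, 10 with CB and 0 with S1650b, and ERG, an endothelial transcription factor, 0 counts in the control, 9 with CB and 0 with S1650b. ASNS, asparagine synthetase and a classic ATF4 target, had 4 counts in the control, 16 with CB and 15 with S1650b, with 44.6% of its exons overlapped by other genes. ALOXE3, an epidermal lipoxygenase, had 3 counts in the control, 18 with CB and 11 with S1650b. On the other side SPRR1A, an envelope precursor, had 10 counts in the control, 1 with CB and 6 with S1650b, XAF1, an interferon-stimulated gene, 19 counts in the control, 4 with CB and 20 with S1650b, and ERBB4, a neuregulin receptor, 13 counts in the control, 3 with CB and 22 with S1650b. All these counts are small.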
